A study of Drosophila melanogaster with 11 samples.

Results

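The EGFR and Ras pathway of Drosophila melanogaster was examined in a map of E(spl)m8-HLH (m8) occupancy in embryos, at 10 genes taken from ligand to nucleus, of which 9 are described: spitz (spi), vein (vn), argos (aos), Egfr, sprouty (sty), Ras85D, pointed (pnt), anterior open (aop) and capicua (cic). A peak was given to a gene if the deposited peak tables name that gene as intersecting the peak or, where no gene intersects it, as flanking it. Of the 3973 peaks called by Qseq, 37 went to these genes, and of the 4209 peaks above 20 RPM called by MACS, 32 did. RPM is the count of reads that a caller gave to a peak, per 1000000 reads of the library, and the callers count in different ways. The 10 genes were picked with these tables known and the rule counts the peaks themselves, so the numbers and levels of peaks are given as a description with no test.

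The study mapped the Notch effectors Su(H), E(spl)m5-HLH and m8 by ChIP and DamID in 11 libraries of 6 conditions, and the tables used here hold 1 library, of un-driven m8 DamID. In this condition embryos of stage 9 to 16, collected over 15 h at 26 °C, carried a UAS transgene that fuses Dam to m8, without a Gal4 driver, so that the leakiness of UAS supplied low levels of the fusion in whole embryos. The line was made by P element insertion, and a stop cassette between FRT sites had been removed from the transgene with FLP. The library was taken as un-driven because its name in the tables carries no driver. The labels list 2 libraries of this condition, and the sources used here do not tell which of them the tables hold. The conditions with m5, with pros-Gal4 and with ChIP were not analysed here. None of the 11 libraries is of Dam alone, so that occupancy by m8 and access of Dam to open chromatin cannot be told apart in any value given here. With whole embryos, a few cells with much methylation and many cells with little cannot be told apart either.

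In this pathway, ligands such as the TGF-alpha type protein Spi and the neuregulin type protein Vn bind the receptor tyrosine kinase Egfr. The receptor acts through the GTPase Ras85D and the kinases Raf, Dsor1 and Rl on the ETS activator Pnt, the ETS repressor Aop (Yan) and the HMG box repressor Cic. In the embryo the pathway patterns the ventral ectoderm and the columns of the neuroectoderm and acts in tracheal and midline glial development, while Aos and Sty restrain it. m8 is a basic helix-loop-helix repressor of the E(spl) complex and is switched on by Notch signaling.

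DamID reads begin where DpnI has cut a methylated GATC, between its A and its T, and a part of the Qseq peaks began at or near a GATC. Only the starts of peaks were compared with GATC sites. Sequence was read from Release 6 (dm6) only where the numbering of the tables matched it. On 2L and in the first 5 Mb of 3L, the gene that the tables name as intersecting a peak overlapped that peak in 98.7% and 100% of cases, against 53.0% on the rest of 3L and 0% on 3R. Of the Qseq peaks, 44.5% on 2L and 46.1% in the first 5 Mb of 3L began within 5 bp of a GATC, against 2.57% on the rest of 3L, 2.04% on 3R and 2.74% when the 2L peaks were shifted by 1000 bp. The limit of 5 Mb was set after this check was seen. The genes aop and spi on 2L and sty on 3L could therefore be placed on the sequence, and vn, aos, pnt, cic and Ras85D could not, while Egfr was not placed. Peaks of these genes are given in the numbering of the tables, whose build is not settled by the sources used here. The most frequent start on 2L, at 148 of 694 Qseq peaks, lay 2 bases after the first base of a GATC, which is the first base after the cut. Of the 15 Qseq peaks at aop, spi and sty, 7 began at exactly this base, and 10 began within 5 bp of a GATC. None of the 14 MACS peaks above 20 RPM at these 3 genes began within 5 bp of one. The other Qseq peaks of these genes began from 16 bp before to 436 bp after the first base of the nearest GATC and are not shown. The left edges of the 7 peaks, chosen because they begin at this base, are shown on the plus strand of Release 6. The GATC is in capitals.
spi, 55.6 RPM, chr2L:19569740-19569769: tccgaattcaGATCtctgttagccgcgttt
sty, 39.0 RPM, chr3L:3385424-3385453: ttaagcctgcGATCcgtgtgcatgtatgga
sty, 41.0 RPM, chr3L:3390005-3390034: tcgttagcgaGATCtcgcgccggccacggg
sty, 43.1 RPM, chr3L:3393642-3393671: tcggattgcaGATCcatgtgggaggtcaaa
sty, 30.1 RPM, chr3L:3396123-3396152: gaaagggggaGATCggccaaattaaaacga
sty, 43.1 RPM, chr3L:3413389-3413418: ggcgtgggctGATCtaaagaatagaagggg
sty, 112.2 RPM, chr3L:3419048-3419077: gcgaatccccGATCcaaacaagttttccac

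**Figure D1:**
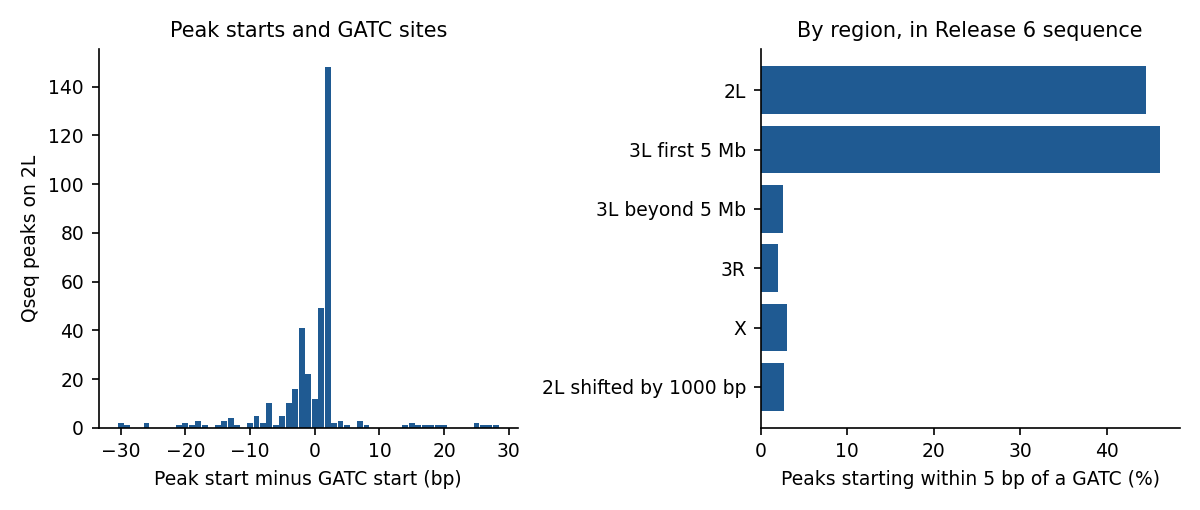
Left, the number of Qseq peaks on 2L against the distance in bp from the first base of the nearest GATC to the start of the peak. Right, the percent of Qseq peaks that begin within 5 bp of a GATC of Release 6 in each region of the tables. The tallest bar stands at 2 bp with 148 peaks, and the share was 44.5% on 2L and 46.1% in the first 5 Mb of 3L but 2.04% on 3R.

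Of the 10 genes, 7 (spi, vn, aos, sty, pnt, aop and cic) had Qseq peaks, and 9 of 10 had MACS peaks above 20 RPM, the exception being Ras85D. Over all 17557 genes on the chromosome arms, 13.8% were given a Qseq peak and 18.0% a MACS peak above 20 RPM. The members are long genes, with a median of 23.0 kb against 1.70 kb for all genes, and 9 of 10 span 5 kb or more. Among genes of 5 kb or more, a limit chosen after the values were seen, 38.4% had a Qseq peak and 47.4% a MACS peak above 20 RPM. As the genes were picked from these peaks, nothing is read from the difference. Of the 37 Qseq peaks, 30 lay inside a member (81.1%, against 74.7% of all Qseq peaks inside a gene) and 7 lay between genes. Their median was 41.0 RPM beside 40.5 RPM for all Qseq peaks. The spread was wide, from 13 peaks under 30 RPM to 11 peaks of 100 RPM or more (29.7%, against 16.1% of all Qseq peaks). The 32 MACS peaks had a median of 104.1 RPM beside 54.0 RPM for all MACS peaks above 20 RPM. Lengths differ in this comparison, RPM is not divided by the length of a peak, and the cause of the higher median was not tested. Most of the 32 were longer than 1106 bp, the median length of all MACS peaks above 20 RPM. No Qseq peaks of the members overlapped each other.

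**Figure D2:**
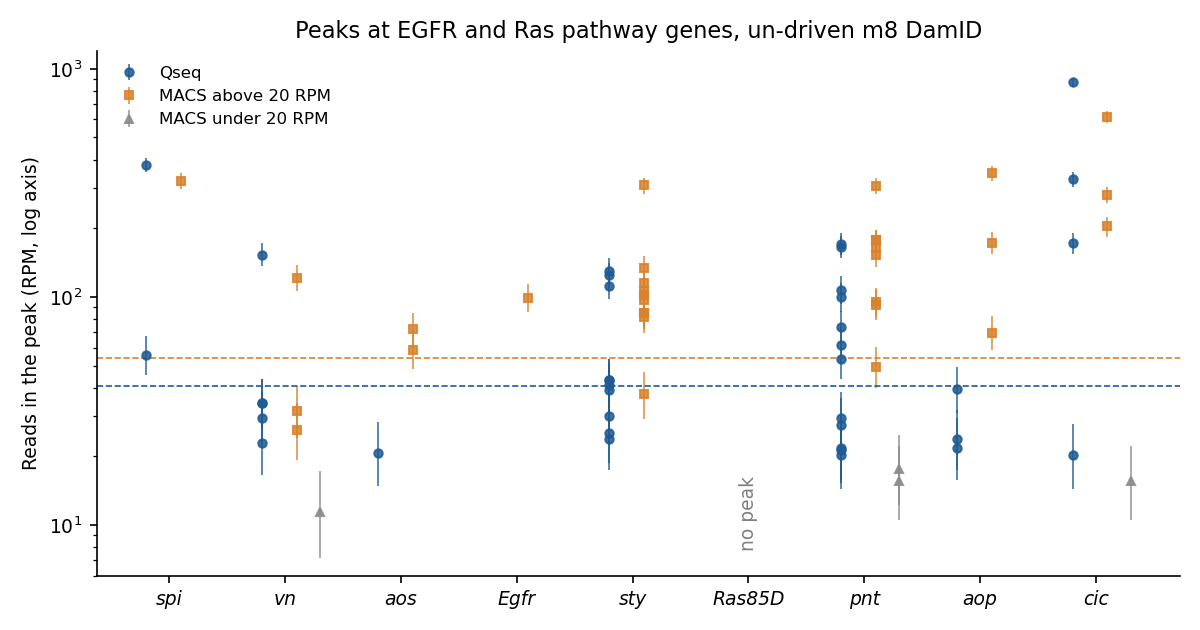
Reads in each peak, in RPM on a log axis, at the 9 genes described for Qseq peaks (circles), MACS peaks above 20 RPM (squares) and MACS peaks under 20 RPM (triangles), with exact Poisson 95% intervals. Dashed lines mark the medians of all Qseq peaks (40.5 RPM) and of all MACS peaks above 20 RPM (54.0 RPM). The highest points stand at cic, Egfr has a MACS peak alone, and Ras85D has no peak.

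The library behind the RPM scale held 1925156 reads, so that 1 RPM stands for 1.93 reads and the weakest Qseq peaks rest on 39 reads. Intervals in this text are exact Poisson 95% intervals and cover counting error alone, since PCR can copy 1 molecule into several reads. Reads of MACS peaks were worked out from their RPM at this depth, so their intervals rest on that conversion. The tables hold a single library, so no value has a replicate. Just inside the threshold of 20 RPM lay a Qseq peak at cic and one at pnt, both at 20.3 RPM (14.4 to 27.7). They lay within MACS peaks of 280.0 RPM at cic and 95.1 RPM at pnt. Under the threshold in MACS, 4 peaks lay inside vn (11.4 RPM), cic (15.6 RPM) and pnt (15.6 and 17.7 RPM). All of their intervals but that of vn reach past 20 RPM, and the peak of 17.7 RPM overlaps a Qseq peak of 21.8 RPM.

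Of the ligand genes, spi carried the second highest Qseq peak of all members, and vn a row of lower ones. The 2 Qseq peaks of spi held 379.7 RPM (352.7 to 408.3, 731 reads) and 55.6 RPM (45.5 to 67.2, 107 reads). The higher one ranked 63 of 3973 and spanned 2466 bp, chr2L:19571524-19573989 of Release 6. It covered the start site of 2 of the 5 annotated transcripts of spi, at 19572610, with 307 bp of it in 5′ untranslated exon and 2159 bp in intron of the longer transcripts. The first start site of spi, 4.56 kb upstream of the middle of the peak, and the second had no peak. MACS called the same place at 322.1 RPM (297.2 to 348.4). The weaker Qseq peak lay wholly in intron, and the tables name mir-2a-1 and mir-2b-2, microRNA genes within spi, beside spi for it. The start site under the strong peak is shown on the minus strand, which spi uses, with the bases before it and the first 20 transcribed bases in capitals. It was chosen as the only start site of the placed genes that a Qseq peak covered.
spi start site, chr2L:19572591-19572790: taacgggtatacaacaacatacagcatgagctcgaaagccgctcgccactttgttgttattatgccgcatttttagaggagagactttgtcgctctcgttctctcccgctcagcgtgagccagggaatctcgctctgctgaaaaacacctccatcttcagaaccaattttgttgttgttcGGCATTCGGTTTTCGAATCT

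The gene vn, which encodes a weaker ligand of the receptor, had 5 Qseq peaks over 37331 bp of 3L, of which 3 lay inside the gene and 2 between vn and CG5568. The peak at 5821558 to 5822467 held 153.2 RPM (136.2 to 171.8, 295 reads). The other 4 held 22.9, 29.6, 34.3 and 34.3 RPM, with intervals that end at 43.6 RPM or lower. The interval of the highest peak of vn thus overlapped none of the others. It was singled out as the highest, so no test was made. MACS called the 153.2 RPM peak at 121.0 RPM (106.0 to 137.6), and gave 31.7 and 26.0 RPM to the places of the 2 peaks of 34.3 RPM. The weak MACS peak of 11.4 RPM also lay inside vn.

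The gene aos, which encodes a secreted inhibitor that binds Spi, had a Qseq peak of 20.8 RPM (14.8 to 28.3, 40 reads). It had MACS peaks of 58.7 RPM (48.4 to 70.6) and 72.2 RPM (60.7 to 85.3), and neither shared a base with the Qseq peak. All peaks of aos are named for CG33158 as well, and which gene they belong to cannot be told apart from names.

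The intracellular inhibitor gene sty carried 10 Qseq peaks over 34794 bp, a number reached by 31 genes, and 10 MACS peaks. Of the Qseq peaks, 6 lay inside sty, all of them wholly in intron. The highest 3 of these held 130.4 RPM (114.7 to 147.5), 124.7 RPM (109.4 to 141.5) and 112.2 RPM (97.7 to 128.2), and their intervals overlap. The other 3 inside the gene held 23.9, 25.5 and 43.1 RPM. The 4 Qseq peaks beyond the 3′ end, between sty and CG12014, held 30.1, 39.0, 41.0 and 43.1 RPM and lay 4333 to 15105 bp past the end of the gene. The high peaks of sty in Qseq were thus all inside the gene, at 5.29, 14.7 and 18.0 kb from its first start site. MACS gave another picture beyond the 3′ end, where its highest peak at sty held 308.0 RPM (283.7 to 333.8, 593 reads), 12847 bp past the gene. No Qseq peak shared a base with this MACS peak, which began at 3386178, but the Qseq peak of 39.0 RPM ended close by, at 3386048. None of the Qseq peaks covered a start site of sty, whereas 1 MACS peak of 85.2 RPM (72.6 to 99.3) covered the second start site, at 3417961. Upstream of that site, in intron, the peak of 112.2 RPM held the 6 bases CACGTG, an E-box, and TGAATGAA, the octamer that Cic binds. The stretch with both is shown on the minus strand, which sty uses, with CACGTG and the octamer in capitals, the latter reading TTCATTCA on this strand.
sty intron, chr3L:3419455-3419662: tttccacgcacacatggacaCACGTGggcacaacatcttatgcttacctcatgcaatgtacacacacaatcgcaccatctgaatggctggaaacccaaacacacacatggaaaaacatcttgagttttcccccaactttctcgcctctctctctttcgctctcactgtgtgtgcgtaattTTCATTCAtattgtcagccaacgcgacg

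At the head of the cascade, Egfr had a single peak and Ras85D none. Egfr had no Qseq peak, and its MACS peak held 99.2 RPM (85.6 to 114.3, 191 reads) at 17416201 to 17417544 of 2R in the numbering of the tables, inside the gene. Of all MACS peaks above 20 RPM, 24.0% were as high or higher. Of the 4 genes of Release 6 on either side of Egfr, only MESK2 had a peak in these tables. Ras85D, which encodes the Ras GTPase itself, had no peak in any of the 3 tables. At 2.51 kb it is also the shortest of the 10 genes. Of the 8 genes nearest to it in Release 6, 4 on either side, 2 were given a Qseq peak, of up to 86.2 RPM, and 5 a MACS peak, of 41.6 to 265.4 RPM, some of them shared between neighbours.

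Of the genes for transcription factors, pnt carried the most peaks and cic the strongest. The 12 Qseq peaks of pnt all lay inside the gene, over 51206 bp of a gene of 55937 bp, a number reached by 18 genes. The lowest held 20.3 RPM, the median was 57.7 RPM and the highest held 171.4 RPM. The highest 4 held 171.4 RPM (153.4 to 190.9), 166.2 RPM (148.5 to 185.5), 107.5 RPM (93.4 to 123.2) and 99.7 RPM (86.1 to 114.9), so that the intervals overlap between the first and second of them and again between the last and the one before it. The peaks of 171.4, 166.2 and 107.5 RPM were among the first 4 peaks from the low end of the numbering. Both callers left the middle of pnt bare above 20 RPM, with 12785 bp between neighbouring Qseq peaks and 17858 bp between neighbouring MACS peaks. The longer gap held the Qseq peak of 21.8 RPM and MACS peaks of 15.6 and 17.7 RPM. MACS gave pnt 8 peaks above 20 RPM, of 49.3 to 307.0 RPM, and those of 177.6 RPM (159.3 to 197.5) and 92.5 RPM (79.4 to 107.1) had no Qseq peak. The MACS peak of 307.0 RPM spanned 3742 bp and took in the Qseq peaks of 107.5 and 21.3 RPM, which add up to 128.8 RPM.

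The gene cic encodes the repressor that is relieved by receptor tyrosine kinase signaling, and its 4 Qseq peaks held 871.6 RPM (830.4 to 914.3, 1678 reads), 327.2 RPM (302.2 to 353.8), 171.9 RPM (153.9 to 191.5) and 20.3 RPM (14.4 to 27.7). The 3 high peaks have intervals that do not overlap, though these cover counting error alone and no test was made. The highest peak ranked 14 of 3973 Qseq peaks, and its MACS counterpart of 615.0 RPM (580.5 to 651.1) ranked 11 of 4209. The peaks fell in 2 groups, with 3 of them separated by 209 and 3289 bp and the peak of 871.6 RPM alone, 26947 bp further on. Per kb of peak, with lengths as the caller set them, this peak held 462.6 RPM (440.8 to 485.3). The next highest Qseq peaks per kb were at vn with 168.4 RPM (149.7 to 188.7), cic with 160.3 (148.1 to 173.4), pnt with 155.1 (138.5 to 173.0), spi with 154.0 (143.0 to 165.6) and sty with 147.7 (129.6 to 167.6), and these 5 overlap in their intervals. Per kb, the interval of the 871.6 RPM peak of cic overlapped that of no other Qseq peak of the 10 genes. MACS gave the same place 281.0 RPM per kb (265.2 to 297.4), below the Qseq interval. The peak was singled out as the highest, so no test was made.

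**Figure D3:**
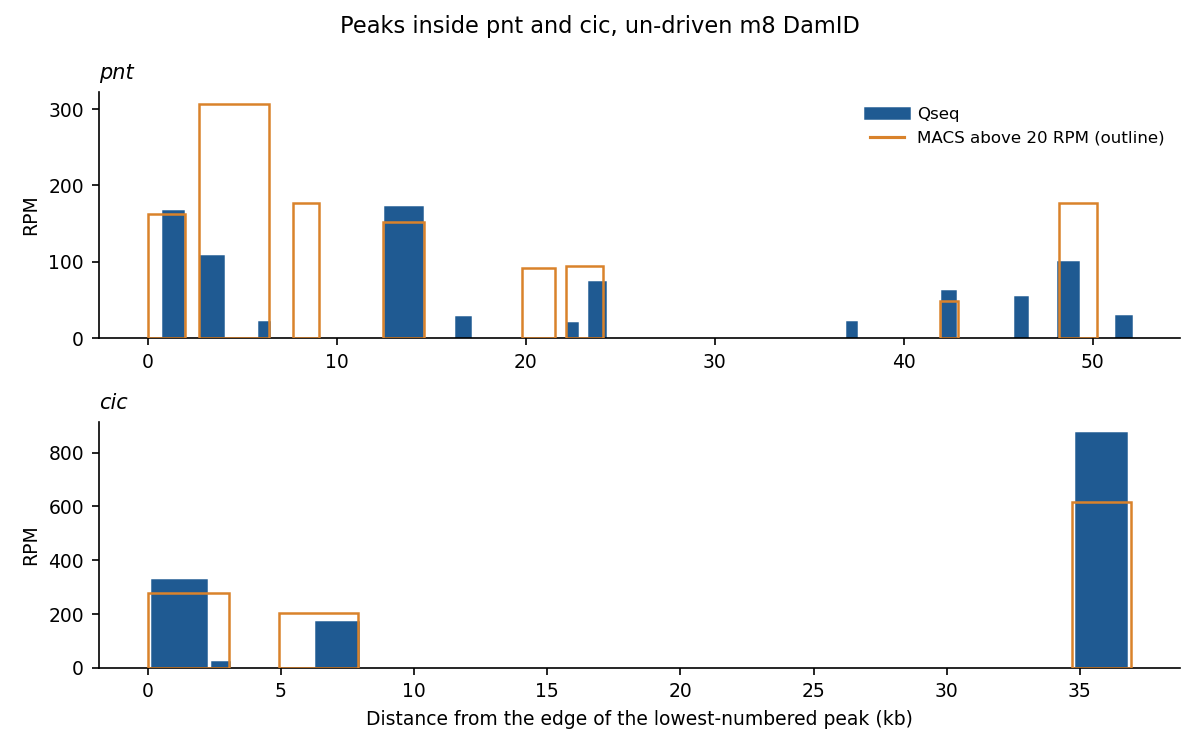
Peaks inside pnt and cic against the distance in kb from the edge of the lowest-numbered peak, in the numbering of the tables, with bar height in RPM on an axis that starts at 0. Filled bars are Qseq peaks and outlines MACS peaks above 20 RPM. MACS peaks under 20 RPM are not drawn. At pnt peaks spread over the gene with a middle bare above 20 RPM, and at cic the 871.6 RPM peak stands alone among the peaks drawn.

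At the ETS repressor gene aop the callers gave different pictures. Its 3 Qseq peaks held 21.8 RPM (15.7 to 29.5), 23.9 RPM (17.5 to 31.9) and 39.5 RPM (31.1 to 49.4), the last one 1067 bp before the first start site, where CR43751 is the other flanking gene, and the other 2 in intron. The 3 MACS peaks held 69.6 RPM (58.3 to 82.4), 173.0 RPM (154.9 to 192.6) and 348.0 RPM (322.2 to 375.4). The highest of them, chr2L:2177342-2179480, covered the start site of 3 of the 5 transcripts of aop, at 2178754, and ranked 84 of 4209 MACS peaks with 670 reads, yet no Qseq peak shared a base with it. The Qseq peak of 39.5 RPM began close by, at 2179821. The peak of 173.0 RPM overlapped the Qseq peak of 23.9 RPM, and its 2962 bp ran 4.83 times as long. The start site under the MACS peak is shown on the minus strand, again with the first 20 transcribed bases in capitals, as the placed start site with the highest MACS peak.
aop start site, chr2L:2178735-2178934: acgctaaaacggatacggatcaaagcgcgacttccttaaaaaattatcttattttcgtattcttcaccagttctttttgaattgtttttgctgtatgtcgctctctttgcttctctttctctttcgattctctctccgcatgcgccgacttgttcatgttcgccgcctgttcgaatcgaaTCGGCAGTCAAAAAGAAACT
The MACS peak of 69.6 RPM lay in intron and held CACGTG and CACGCG, a string that the related repressor Hairy is known to bind, and the stretch with both is shown on the minus strand with them in capitals.
aop intron, chr2L:2165788-2166085: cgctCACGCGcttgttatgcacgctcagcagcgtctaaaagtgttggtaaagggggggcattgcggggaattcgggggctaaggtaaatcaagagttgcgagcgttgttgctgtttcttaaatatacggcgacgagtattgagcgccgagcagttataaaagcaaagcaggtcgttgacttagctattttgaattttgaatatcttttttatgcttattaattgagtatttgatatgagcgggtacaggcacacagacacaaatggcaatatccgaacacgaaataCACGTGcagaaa

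**Figure D4:**
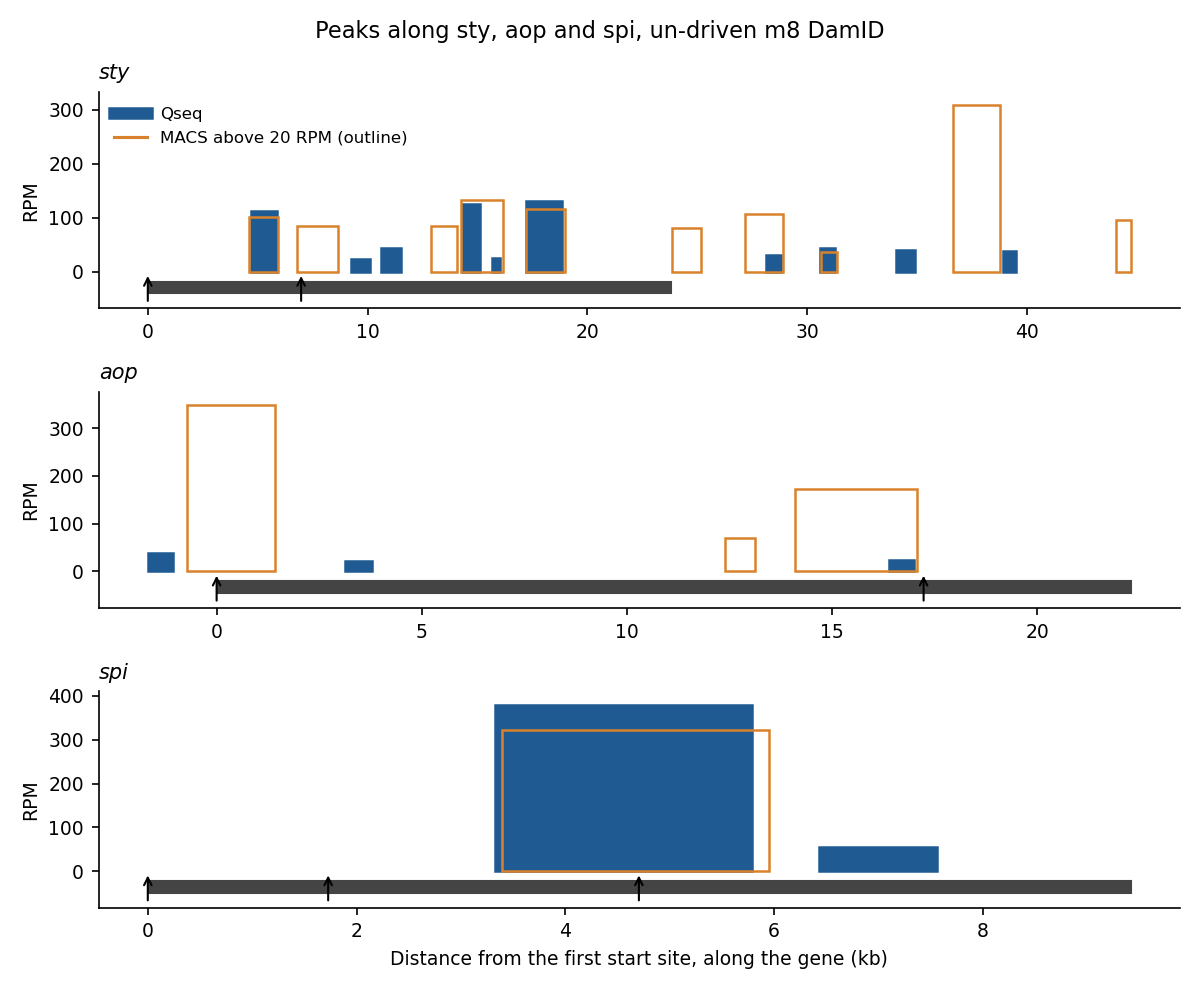
Peaks along sty, aop and spi, drawn to scale by distance in kb from the first start site in the direction of transcription, with bar height in RPM on an axis that starts at 0 for each gene. Filled bars are Qseq peaks, outlines MACS peaks above 20 RPM, the dark strip the gene and arrows its start sites. At aop the 348.0 RPM MACS outline stands over the first start site with no Qseq bar, while at spi both callers mark the third start site.

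Motifs were searched on both strands in the 5 Qseq peaks of aop and spi and then in all 15 Qseq peaks of the placed genes. The searched strings were the E-box CACGTG and the string CACGCG described for aop. The search also took in the N-box CACNAG, where N is any base. To these were added the core of a Su(H) site, GTGGGAA, the Cic octamer described for sty and the DpnI string GATC. The E-box and the DpnI string read the same on both strands, no string contains another, and partial overlaps of neighbouring matches were kept. CACNAG was in 80.0% of the 15 peaks, beside 60.0% of all 887 Qseq peaks in the same regions and 64.1% of windows of the same lengths along 2L. CACGCG was in 20%, beside 21.8% and 15.2%. CACGTG was in 6.67%, which is the peak of sty shown with its sequence, beside 11.4% and 10.6%. TGAATGAA was in 20%, all 3 at sty, beside 9.02% and 7.27%. GTGGGAA was in 0 of the 15, beside 12.0% of all peaks and 11.7% of windows. Each of the 15 held a GATC, as did 80.3% of all peaks and 79.1% of windows. In the 5 Qseq peaks of aop and spi alone, the N-box was in 4, CACGCG in 1 and GATC in 5. None of these Qseq peaks held the E-box, the Su(H) core or the octamer. In the 14 MACS peaks above 20 RPM at aop, spi and sty, CACGCG was in 35.7%, beside 30.6% of all 975 MACS peaks of the same regions. CACGTG was in 28.6%, beside 16.7%, CACNAG in 85.7%, beside 75.8%, and TGAATGAA in 28.6%, beside 14.4%. GTGGGAA was in 7.14%, beside 17.3%, and GATC in 100%, beside 96.0%. This comparison was not matched for length. The 348.0 RPM peak at the start site of aop held 1 CACGTG and 3 CACGCG, and the 173.0 RPM peak of aop held 2 matches of the Su(H) core. A match is a string of letters in a window and was not tested as a site.

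The callers read the same library and did not give the same list. Of the 37 Qseq peaks, 23 (62.2%) shared at least 1 bp with a MACS peak above 20 RPM, beside 76.7% of the 3603 Qseq peaks on the chromosome arms. The 21.8 RPM peak of pnt overlapped a weak MACS peak alone, and 13 had no MACS peak. Of the 32 MACS peaks, 19 (59.4%) had a Qseq peak, beside 61.5% of 3961 on the arms. Among the 17 MACS peaks of 100 RPM or more, those without a Qseq peak were the 348.0 RPM peak of aop, the 308.0 RPM peak of sty and the 177.6 RPM peak of pnt. In 15 cases a single Qseq and a single MACS peak overlapped each other alone. The ratio of MACS to Qseq RPM had a median of 0.891 in these and ran from 0.706 at cic to 7.24 at aop, beside a median of 0.944 over 2135 such pairs on the arms. In 11 of the 15 the Qseq peak lay whole inside the MACS peak, and in 8 of these 11 the longer MACS peak nevertheless held fewer reads, as it did in 56.1% of 1609 such pairs on the arms. At cic the MACS peak held 1184 reads where the Qseq peak within it held 1678. The RPM of the tables are thus counts made in different ways from the same reads, and ratios between the tables compare the callers, not levels of occupancy.

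Beyond these 10 genes, 27 further genes of the pathway were looked up, of which 9 had Qseq peaks (25 peaks) and 13 had MACS peaks above 20 RPM (25 peaks). Beside these 9 and 13 of 27 stand the 13.8% and 18.0% of all genes, and the 38.4% and 47.4% of genes of 5 kb or more, so that nothing particular to the list is read from its counts. Among 6 genes for ligands and their processing, 2 had Qseq peaks. Star (S), which encodes a cargo receptor that carries Spi to the site of cleavage, had 6, of 26.0 to 135.1 RPM (119.1 to 152.5 for the highest), and roughoid (ru), a protease gene, had 1 that it shares with Ptp61F. Of 10 genes on the receptor side, 4 had Qseq peaks. The GTPase activating protein gene Gap1 had 2, of up to 53.5 RPM (43.7 to 64.9), the adaptor gene drk had 1 of 36.4 RPM (28.3 to 45.9), shared with mars, the gene for the Egfr inhibitor Kek1 had 3 of up to 35.8 RPM (27.9 to 45.4), all between genes and the highest with ACXC as the other flanking gene, and the phosphatase gene csw had 2 of up to 32.2 RPM. In the cascade, 1 of 6 genes had Qseq peaks, namely the kinase gene Raf, called phl in the tables, with 4, of which 1 lay between genes, of up to 130.4 RPM (114.7 to 147.5). The genes for the kinases that follow it, Dsor1 and rl, had none in any of the tables, nor did ksr, cnk and Sur-8. Of 5 genes for regulators and targets, edl, whose protein binds Pnt and Aop, had 4, of which 2 lay between genes, of up to 164.1 RPM (146.5 to 183.3), and the phosphatase gene Mkp3 had 2 of up to 46.2 RPM (37.1 to 56.9). In MACS the highest peaks of the further genes were at edl with 393.2 RPM and at dos, an adaptor gene without a Qseq peak, with 279.5 RPM. The genes ru and dos and the genes without peaks were named after their values were seen.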

How the data were processed

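The tables hold 1 library of un-driven m8 DamID, and 0 columns of values were left unmatched. Per the study's methods, the authors assembled reads of 100 bp with SeqMan NGen 12.2, normalized them to RPM and called peaks with Qseq. The build they name is dm6. The deposited Qseq peaks are those above 20 RPM with a p-value under 0.05, and the deposited p-value was not used further. Each Qseq peak has a deposited count of reads, which set against its RPM gave the depth of 1925156 reads. At this depth the deposited RPM of the MACS peaks gave whole reads in 100% of peaks, with a tolerance of 0.01 reads. The deposited score of the MACS peaks was not used, and its caller's settings are not given in the sources used. Sheets of the authors that repeat the Qseq peaks without positions were not used.

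Intervals are exact Poisson intervals at 95%. RPM was not divided by the length of a peak, except where given per kb. No test was made, as 1 library has no replicate. The 10 genes, the further pathway genes and the alternatives were chosen with earlier results of these data known. The text names the members, of which 1 is counted but not reported here, the 8 further pathway genes with the highest Qseq RPM, and genes that share a peak with or lie beside a member. Names of genes cut at a bracket were left out, and 4123 of 4521 names (91.2%) matched Release 6. Sequence was credited to RefSeq's Release 6 genome and annotation. The assignment rule, overlaps and intervals were tested on simulated data. Alternatives were MACS in place of Qseq peaks, peaks inside genes alone, a member named in any cell, a minimum of 40 RPM, merged peaks, and an overlap of at least 50% of the Qseq peak. Python 3.11.15 was used, with scipy 1.17.1 for intervals, pandas 2.3.3 and numpy 2.4.6 for tables and matplotlib 3.10.9 for plots.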

Additional observations from a re-analysis of the deposited data

How the results depend on the processing

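No paired analysis was possible because only 1 library was at hand. The number of members with a peak was 7 with Qseq, 9 with MACS peaks above 20 RPM and 5 with Qseq peaks of 40 RPM or more. A minimum of 40 RPM left 19 of the 37 Qseq peaks, by its construction. The median of 41.0 RPM became 104.1 RPM with MACS and 54.5 RPM with peaks inside genes alone, and the cause of the former was not tested. The highest RPM of a member moved beyond its counting interval with MACS at all 7 members that have a Qseq peak, and at aop, from 39.5 to 23.9 RPM, with peaks inside genes alone. A member named in any cell left the counts at 7 and 37, merging peaks left the median at 41.0 RPM, and an overlap of 50% of the Qseq peak again gave 23 peaks. The motif shares with the peaks of 3L added, an alternative chosen after seeing the data, stayed within the binomial intervals of the 5 peaks of 2L, which are wide. The threshold of 20 RPM is the authors' own, and with 1 library no spread between samples can be given.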
